A study of Saccharomyces cerevisiae with 4 samples.

Results

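The proteasome genes of budding yeast were described on 4 Affymetrix Yeast Genome S98 arrays, 2 from Snf1-I132G cells and 2 from Snf1 cells. Members were chosen by name from the platform annotation, as probe sets with a single gene symbol made of PRE, PUP, RPN, RPT or SCL and a number, or with the symbol UMP1 or BLM10. This gave 36 genes on 42 of the 9335 probe sets, out of 5656 genes that had a probe set of their own. They are 14 core particle genes, 18 regulatory particle genes and 4 genes whose products are not stable subunits, namely RPN4, RPN14, UMP1 and BLM10. All 36 genes and 41 of the 42 probe sets passed the filter on dim signals.

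Both groups carried their form of the Snf1 kinase under the same regime. Cells in early log phase in SC-ura with 2% glucose were moved for 120 min to 2% raffinose with 0.05% glucose, and 25 µM 2NM-PP1 was then added for 40 min. Snf1-I132G is the form whose kinase activity this pyrazolopyrimidine inhibits, and the Snf1 cells received it as well. Each array carried RNA combined from 3 transformants, run in duplicate per strain. No array was made without the inhibitor, so the I132G change itself and inhibition of the kinase cannot be told apart, and no p-value here reaches beyond the scatter of these 4 arrays, which may be technical.

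The proteasome degrades proteins that carry ubiquitin chains. Its core particle is a barrel of outer alpha rings, which form the gate, and inner beta rings, which hold the proteolytic sites. The regulatory particle caps the barrel: its base unfolds substrates with a ring of AAA ATPases, and its lid removes the ubiquitin chain. In yeast most of these genes are activated together by the transcription factor Rpn4, which is itself a short-lived proteasome substrate. Snf1, a relative of the AMP-activated kinase of animals, becomes active when glucose is scarce.

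The 4 arrays had been scaled alike, and their median signals over non-control probe sets were 131.9 and 139.4 in Snf1-I132G against 151.6 and 161.3 in Snf1. Each difference below is Snf1-I132G minus Snf1 on the scale of log2(signal + 16), so that -1 is close to a halving of a bright signal. A gene was counted as lower or higher where limma, fitted over all 6956 tested probe sets, gave an adjusted p (Benjamini-Hochberg) under 0.05. Each gene was represented by its brightest probe set. The median difference over all tested genes was -0.16. In RNA from whole cultures, fewer cells with a transcript and less of it per cell cannot be told apart.

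Proteasome transcripts were lower in Snf1-I132G, by a modest amount that was much alike across subunits. Of the 36 genes 22 fell and 0 rose, where 19.9% of all tested genes fell and 9.03% rose. These 22 falls became 10 after median centring of the arrays, where 13.5% of all tested genes fell. With the pair of same-numbered arrays as a block they became 32, where 31.8% of all tested genes fell. Fewer of the 36 genes fell when an array was left out, and so did fewer of all tested probe sets. Without either replicate of Snf1 few of the genes fell, a share much like that over all tested probe sets. The median over the 36 genes was then -0.67 and -0.65 without replicate 1 and 2 of Snf1. Without replicate 1 and 2 of Snf1-I132G it was -0.75 and -0.60. All 36 differences were below 0 on the deposited scale, against 60.1% of all tested genes, and 35 were after median centring or quantile normalization, where RPN9 turned positive. In 35 genes both Snf1-I132G arrays lay below both Snf1 arrays, against 45.4% of all tested genes, and RPN9 was the one that overlapped. The median was -0.67 for the 14 core particle genes and -0.62 for the 18 regulatory particle genes. Of all tested genes 20.5% lay below the first value and 22.6% below the second. The differences of the 32 subunit genes had an SD of 0.23, against 0.79 over all tested genes. The subunit genes lay above the median signal of each array, and genes of like brightness were not compared. Only PUP3 among the subunits was below -1, and so were BLM10 and UMP1, whose products act on the core particle from outside or during its assembly.

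**Figure D1:**
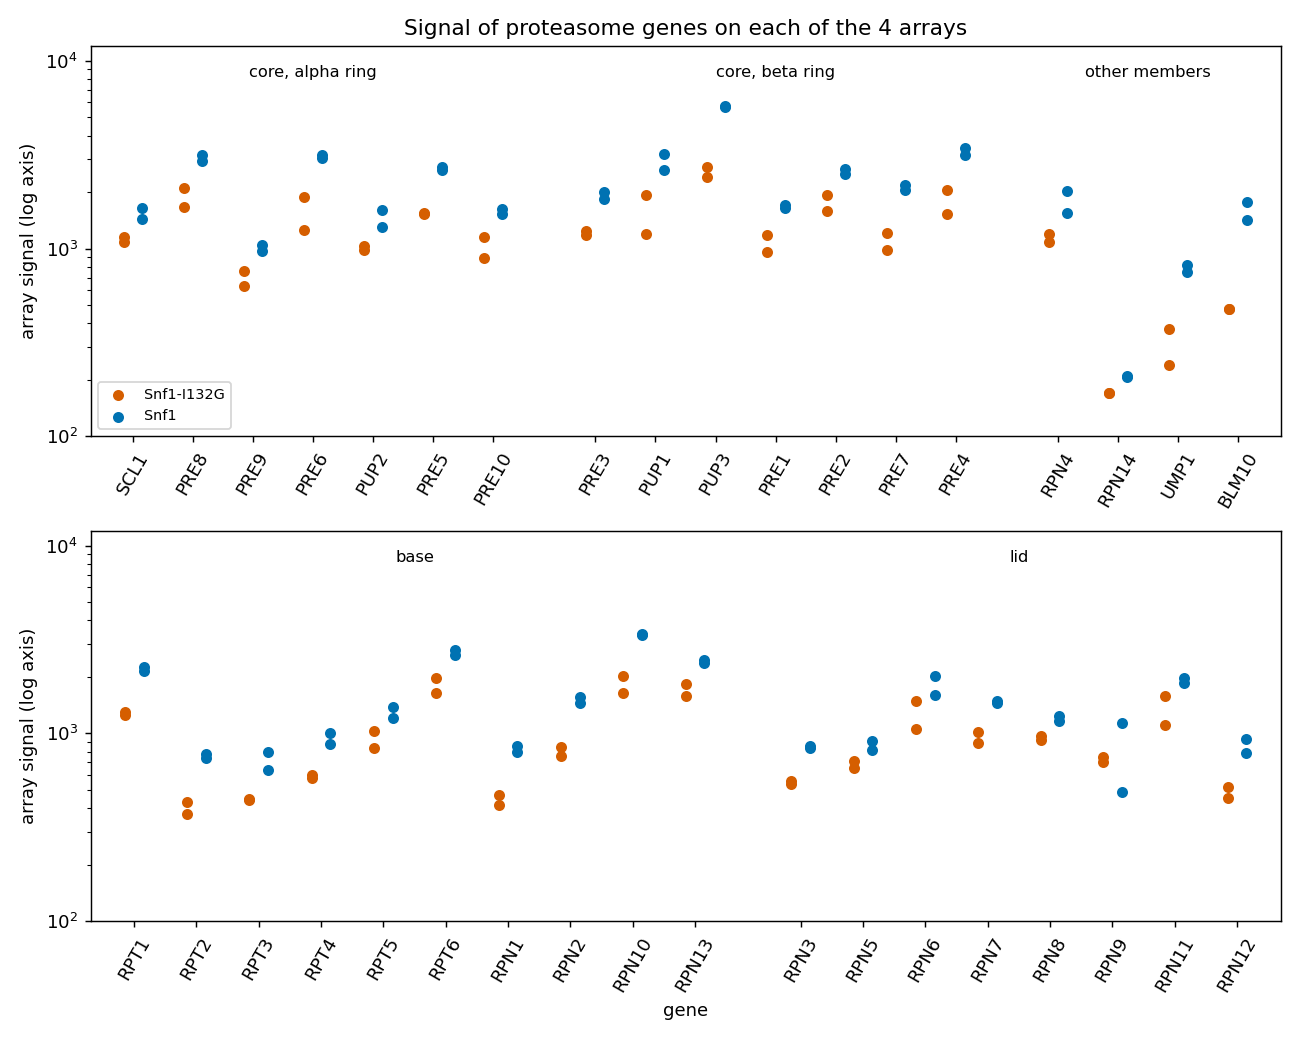
Signal of the brightest probe set of each of the 36 genes (vertical log axis, array signal) on the 2 Snf1-I132G arrays (orange, left of each pair) and the 2 Snf1 arrays (blue, right of each pair). The orange points lie below the blue ones in 35 genes, and the Snf1 arrays of RPN9 lie at 485 and 1129, on either side of its Snf1-I132G arrays.

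In the alpha ring all 7 genes had both Snf1-I132G arrays below both Snf1 arrays, against 45.4% of all tested genes. Of the 7 genes 3 fell, where 19.9% of all tested genes fell. The median of the ring was -0.63. PRE6, an alpha subunit gene, had signals of 1893 and 1254 in Snf1-I132G and 3156 and 3040 in Snf1. That is a difference of -1.0 ± 0.23 (SE; limma, adjusted p = 0.026). Its Snf1-I132G arrays were farther apart than its Snf1 arrays. PRE5 had signals of 1555 and 1535 in Snf1-I132G and 2629 and 2709 in Snf1, a difference of -0.78 ± 0.14 (limma, adjusted p = 0.014). PRE8 had 2111 and 1665 in Snf1-I132G and 3143 and 2922 in Snf1, a difference of -0.69 ± 0.18 (limma, adjusted p = 0.038). In these 2 genes as well the groups were clearly apart.

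The other 4 alpha genes lay close to the threshold without passing it. PRE10 was at -0.63 ± 0.18 (limma, adjusted p = 0.051), PRE9, for the alpha subunit whose tail helps to close the gate, at -0.52 ± 0.16 (0.065), PUP2 at -0.52 ± 0.17 (0.073) and SCL1 at -0.46 ± 0.16 (0.082). Signals of SCL1, the smallest of these differences, were 1080 and 1156 in Snf1-I132G and 1654 and 1436 in Snf1. With the pair as a block all 7 fell, where 31.8% of all tested genes fell. Median centring left 1 call in the ring, where 13.5% of all tested genes fell. Calls in the ring were lost without either array of Snf1 and fewer without replicate 2 of Snf1-I132G.

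In the beta ring 6 of 7 genes fell, where 19.9% of all tested genes fell. The median of the ring was -0.89. The largest difference of any subunit was that of PUP3, for a beta subunit with no proteolytic site. PUP3 had signals of 2726 and 2397 in Snf1-I132G and 5704 and 5717 in Snf1, so its level in Snf1-I132G was 0.449 of that in Snf1. Its difference of -1.15 ± 0.15 (limma, adjusted p = 0.0066) was the one among the subunits called in each of the 4 fits that left out an array, with adjusted p from 0.014 to 0.039. Each such fit leaves 1 array in a group, which is assumed to vary like the 2 of the other, so these fits show which calls rest on an array and are no added replication.

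Of the 3 beta genes that encode the proteolytic subunits 2 fell, where 19.9% of all tested genes fell. PUP1, for the trypsin-like site, had signals of 1924 and 1190 in Snf1-I132G and 3176 and 2624 in Snf1. Its difference was -0.92 ± 0.26 and only just passed (limma, adjusted p = 0.0496), and its Snf1-I132G arrays lay far apart. PRE3, for the caspase-like site, had 1248 and 1176 in Snf1-I132G and 1991 and 1840 in Snf1, a difference of -0.65 ± 0.15 (limma, adjusted p = 0.026). The other 2 probe sets of PRE3 fell too, by 0.92 and 0.77 on the log2 scale. PRE2, for the chymotrypsin-like site that most proteasome inhibitors block, had 1918 and 1592 in Snf1-I132G and 2510 and 2647 in Snf1. Its difference of -0.56 ± 0.16 missed the threshold (limma, adjusted p = 0.055), though its groups did not overlap.

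The remaining beta genes encode subunits without a proteolytic site, and all 3 fell, where 19.9% of all tested genes fell. PRE7 was at 1210 and 977 in Snf1-I132G and 2053 and 2173 in Snf1, a difference of -0.95 ± 0.17 (limma, adjusted p = 0.014). PRE4 was at 2053 and 1535 in Snf1-I132G and 3446 and 3153 in Snf1, a difference of -0.89 ± 0.19 (limma, adjusted p = 0.023). PRE1 was at 1186 and 958.5 in Snf1-I132G and 1652 and 1699 in Snf1, a difference of -0.64 ± 0.17 (limma, adjusted p = 0.040). In each of them replicate 2 of Snf1-I132G was the lowest of the 4 arrays. Calls in the beta ring numbered 2 after median centring, where 13.5% of all tested genes fell. They were fewer without either array of Snf1 and without replicate 2 of Snf1-I132G.

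Over the 14 core particle genes the mean log2(signal + 16) came to 10.53 and 10.28 in Snf1-I132G and 11.18 and 11.11 in Snf1. Over the 18 regulatory particle genes it came to 9.82 and 9.69 in Snf1-I132G and 10.36 and 10.36 in Snf1. In both particles replicate 2 of Snf1-I132G was the lowest array, and the gap between the groups was wider than the gap between arrays of one group.

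**Figure D2:**
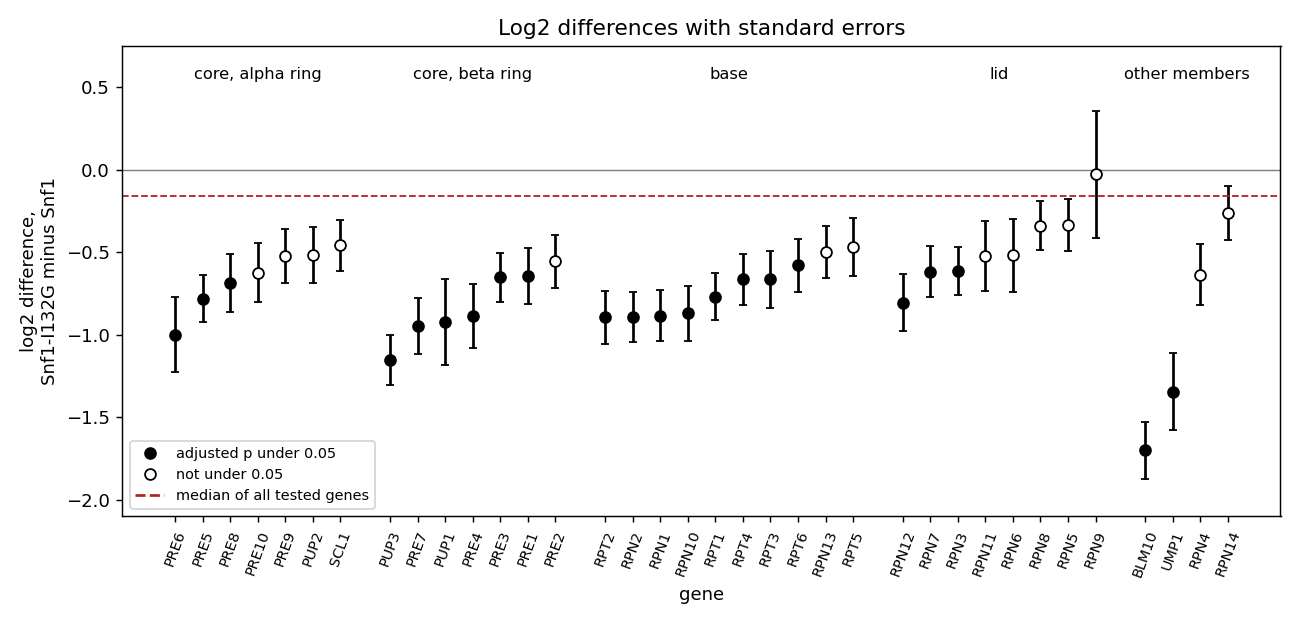
Log2 difference (vertical axis, Snf1-I132G minus Snf1) of the 36 genes by role, with the standard error from limma as bars. Filled points mark an adjusted p under 0.05, and the dashed line marks the median of all tested genes at -0.16. Most subunits lie between -0.45 and -1, BLM10 and UMP1 lie lower at -1.70 and -1.35, and RPN9 lies at -0.03 with the widest bar.

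Of the base 8 of 10 genes fell, where 19.9% of all tested genes fell. The median of the base was -0.72. In all 10 genes both Snf1-I132G arrays lay below both Snf1 arrays, against 45.4% of all tested genes. Among the AAA ATPases 5 of 6 fell. RPT2, whose product helps to open the gate of the core, had signals of 431 and 371 in Snf1-I132G and 778 and 738 in Snf1, a difference of -0.90 ± 0.16 (limma, adjusted p = 0.014). RPT1 had 1255 and 1303 in Snf1-I132G and 2248 and 2142 in Snf1, a difference of -0.77 ± 0.14 (limma, adjusted p = 0.015). The arrays of each group lay close together in both. RPT4, RPT3 and RPT6 were at -0.66 ± 0.16, -0.66 ± 0.17 and -0.58 ± 0.16, with adjusted p from limma of 0.030, 0.040 and 0.048.

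The ATPase gene RPT5 was not called at its brightest probe set, and its probe sets disagreed. The brightest had 1035 and 837 in Snf1-I132G and 1383 and 1210 in Snf1, a difference of -0.47 ± 0.18 (limma, adjusted p = 0.106). Another fell by 0.61 on the log2 scale, with 609.5 and 603 in Snf1-I132G and 932 and 931.5 in Snf1. One more lay at 503 and 519 in Snf1-I132G and 508 and 425 in Snf1, where the groups overlapped. The last had a signal of at most 16.2 on every array and was the one member probe set left out as dim.

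The genes of the large scaffold subunits of the base, Rpn1 and Rpn2, and of a ubiquitin receptor fell by amounts close to that of RPT2. RPN2 had signals of 848 and 760.5 in Snf1-I132G and 1562 and 1454 in Snf1, a difference of -0.89 ± 0.15 (limma, adjusted p = 0.012). RPN1, whose product also docks shuttle factors, had 467.5 and 416 in Snf1-I132G and 860.5 and 796 in Snf1, a difference of -0.88 ± 0.16 (limma, adjusted p = 0.014). RPN10, for a ubiquitin receptor, had 2027 and 1645 in Snf1-I132G and 3323 and 3383 in Snf1, a difference of -0.87 ± 0.17 (limma, adjusted p = 0.016). The level of each in Snf1-I132G was 0.538 to 0.547 of that in Snf1. RPN13, for another ubiquitin receptor, was at -0.50 ± 0.16 and did not pass (limma, adjusted p = 0.065). Base calls numbered 5 after median centring and 10 with the block, where 13.5% and 31.8% of all tested genes fell. They were lost without either array of Snf1 and fewer without either array of Snf1-I132G.

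Of the lid 3 of 8 genes fell, where 19.9% of all tested genes fell. The median of the lid was -0.52. RPN12 had 517 and 450 in Snf1-I132G and 931 and 787 in Snf1, a difference of -0.81 ± 0.17 (limma, adjusted p = 0.022). RPN7 had 1018 and 890 in Snf1-I132G and 1491 and 1448 in Snf1, a difference of -0.62 ± 0.15 (limma, adjusted p = 0.035). RPN3 had 556 and 540 in Snf1-I132G and 835.5 and 858 in Snf1, a difference of -0.61 ± 0.15 (limma, adjusted p = 0.031). All 3 encode scaffold subunits of the lid, and so do RPN5, RPN6 and RPN9, which were not called in the fit without the block.

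RPN11, for the metalloprotease that cuts off the ubiquitin chain, had 1590 and 1106 in Snf1-I132G and 1981 and 1847 in Snf1. Its difference was -0.52 ± 0.21, short of the threshold (limma, adjusted p = 0.124), and its Snf1-I132G arrays lay far apart. RPN8, for its partner subunit, was at -0.34 ± 0.15 (limma, adjusted p = 0.144), RPN6 at -0.52 ± 0.22 (0.141) and RPN5 at -0.33 ± 0.16 (0.170). With the block RPN11 and RPN6 fell (limma, adjusted p = 0.013 and 0.0078), while RPN8 and RPN5 did not pass (0.052 and 0.069).

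RPN9, a lid gene, stood apart from the other subunits. Its signals were 706 and 748 in Snf1-I132G and 485 and 1129 in Snf1, a difference of -0.03 ± 0.38 (limma, adjusted p = 0.959). The Snf1 arrays disagreed by more than the groups did, and the difference was 0.53 in pair 1 and -0.58 in pair 2. Lid calls numbered 0 after median centring and 0 after quantile normalization, where 13.5% and 15.1% of all tested genes fell. With the block they numbered 5, where 31.8% of all tested genes fell. They were lost without either array of Snf1 and without replicate 2 of Snf1-I132G.

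Factors that act on the core particle showed the largest differences of the 36 genes. BLM10, for an activator that caps the core particle in place of the regulatory particle, had signals of 477.4 and 476.6 in Snf1-I132G and 1423 and 1772 in Snf1. Its level in Snf1-I132G was 0.307 of that in Snf1, a difference of -1.70 ± 0.17 (limma, adjusted p = 0.0036). The second BLM10 probe set had 485.5 and 429 in Snf1-I132G and 1280 and 1578 in Snf1 and fell by 1.61. In the fits that left out an array, under the same assumption about the lone array, its adjusted p was 0.0081 to 0.015.

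UMP1, for the chaperone that is enclosed in the maturing core and degraded as its first substrate, had 372 and 241 in Snf1-I132G and 822 and 752 in Snf1. Its level in Snf1-I132G was 0.394 of that in Snf1, a difference of -1.35 ± 0.23 (limma, adjusted p = 0.013). It passed in 3 of 4 fits that left out an array and missed without replicate 1 of Snf1 (limma, adjusted p = 0.051). RPN14, for a chaperone of base assembly, had 170 and 171 in Snf1-I132G and 207 and 209 in Snf1. These groups did not overlap, but the difference was -0.26 ± 0.16 (limma, adjusted p = 0.276).

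RPN4, the gene of the proteasome's transcriptional activator, was at 1083 and 1189 in Snf1-I132G and 1549 and 2029 in Snf1. Both Snf1-I132G arrays were below both Snf1 arrays, and the difference of -0.64 ± 0.19 was close to the median of the subunits. It narrowly missed the threshold (limma, adjusted p = 0.054) and passed with the block (0.0034). Rpn4 is controlled strongly through its turnover, which arrays do not measure.

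Of 6 genes that act on RPN4 or on the turnover of its protein 5 fell, where 19.9% of all tested genes fell. The median of the 6 genes was -0.77. The largest differences were in the arm that removes Rpn4 protein. MUB1, for the adaptor of the ligase that ubiquitinates Rpn4, had 225 and 257 in Snf1-I132G and 631 and 802 in Snf1, a difference of -1.51 ± 0.19 (limma, adjusted p = 0.0058). UBR2, for that ligase, had 181 and 113 in Snf1-I132G and 356 and 432 in Snf1, a difference of -1.36 ± 0.26 (limma, adjusted p = 0.016). Neither pair of groups overlapped.

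Transcription factors that switch RPN4 on differed less, and 3 of the 4 fell, where 19.9% of all tested genes fell. YAP1, for the oxidative stress factor, was at -0.88 ± 0.22, HSF1, for the heat shock factor, at -0.66 ± 0.15 and PDR1, for a drug resistance factor, at -0.60 ± 0.15, with adjusted p from limma of 0.036, 0.030 and 0.037. PDR3, the partner of PDR1, had 1644 and 1769 in Snf1-I132G and 1561 and 1917 in Snf1, which overlapped (-0.02 ± 0.17; limma, adjusted p = 0.935). Calls among these 6 genes numbered 2 after median centring or quantile normalization, where 13.5% and 15.1% of all tested genes fell. PDR3 turned positive under both scalings. Calls were fewer whenever an array was left out.

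The same-numbered arrays of the groups may share a run, so each pair was also read alone. In pair 1 the median difference was -0.68 for the core and -0.54 for the regulatory particle, and in pair 2 it was -0.81 and -0.70. The median over all tested genes was -0.15 in pair 1 and -0.16 in pair 2. In pair 1 35 of 36 genes were below 0, the exception being RPN9, and in pair 2 all 36 were, against 60.1% and 59.8% of all tested genes. With the pair as a block 32 of the 36 genes fell, among them all 14 of the core, where 31.8% of all tested genes fell. The 4 that did not were RPN5, RPN8, RPN9 and RPN14. The fit with the block has 1 residual degree of freedom, against 2 without it, so its calls are not firmer.

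**Figure D3:**
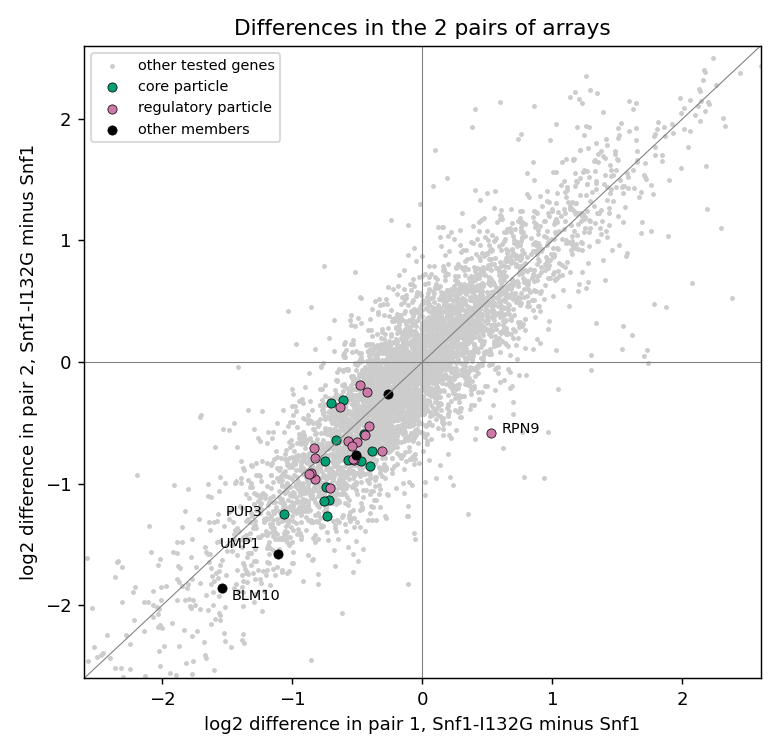
Log2 difference (Snf1-I132G minus Snf1) in pair 1 (horizontal axis) against pair 2 (vertical axis) for the 36 proteasome genes in colour and 5166 other tested genes in grey, with the line of equal values. The coloured points lie together at the lower left apart from RPN9, at 0.53 and -0.58, and 88 grey points fall outside the axes at 2.6.

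Calls of single genes depended on which arrays entered. Over the 4 fits that each left out an array 15 genes were called in none, 10 in 1, 8 in 2, 1 in 3 and 2 in all 4, namely BLM10 and PUP3. UMP1 was the one called in 3. The median differences moved less, from -0.57 to -0.80 in the core and from -0.60 to -0.71 in the regulatory particle.

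The counts also depended on how the arrays were scaled, and the medians kept their sign. Median centring raised the median over all tested probe sets to 0.09, against -0.10 on the deposited scale. The core median was then -0.49 with 3 falls, and the regulatory median -0.43 with 5 falls, where 13.5% of all tested genes fell. Quantile normalization gave a core median of -0.67 with 9 falls and a regulatory median of -0.52 with 6 falls, where 15.1% of all tested genes fell. Centring on the hybridization controls, tried after the data were seen, gave -0.90 with 14 falls and -0.85 with 15 falls, where 34.1% of all tested genes fell. Relative to the median of all tested probe sets, the core lay at -0.57, -0.57, -0.70 and -0.57 on the deposited scale, after median centring, after quantile normalization and after centring on controls. The regulatory particle lay at -0.52, -0.52, -0.54 and -0.52. On the deposited scale the median over all tested genes, at -0.16, was lower than that over all tested probe sets. Relative to the median over genes the core lay at -0.51 and the regulatory particle at -0.46.

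**Figure D4:**
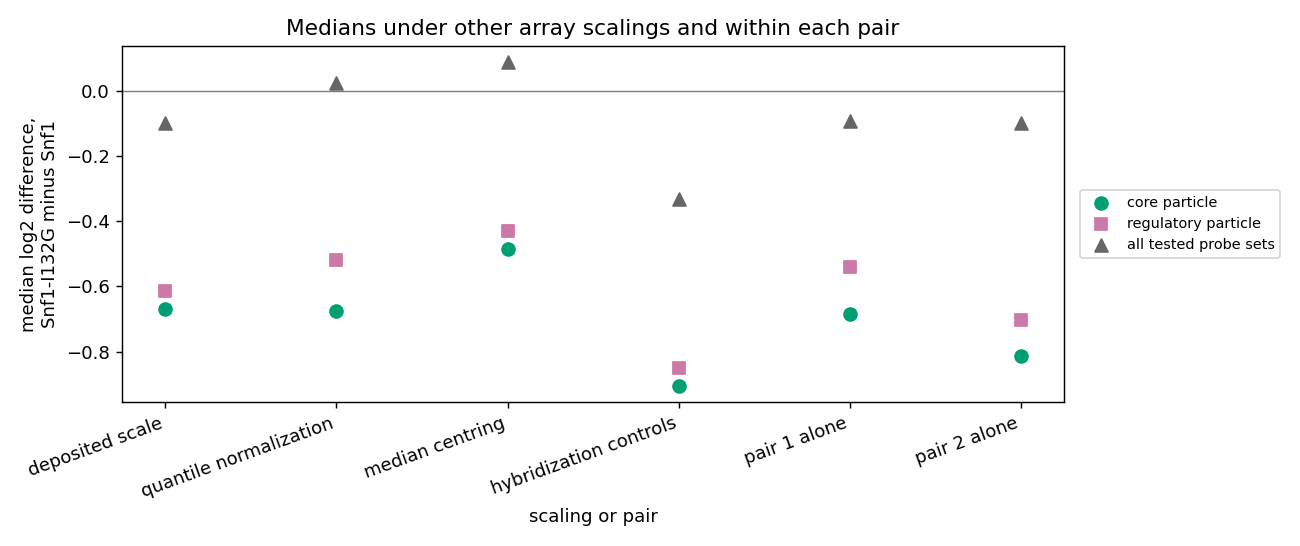
Median log2 difference (vertical axis, Snf1-I132G minus Snf1) of the core particle, the regulatory particle and all tested probe sets under 4 array scalings and within each pair. Both particles lie below the median of all probe sets in each column, and the core lies below the regulatory particle in the columns shown. Without replicate 2 of Snf1-I132G, which is not shown, the core was at -0.57 and the regulatory particle at -0.60. Whether the particles differ was not tested.

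Further assembly and associated factors were mixed. Of 13 tested genes 5 fell and 1 rose, where 19.9% of all tested genes fell and 9.03% rose. The median of the 13 genes was -0.54. SPG5, for a proteasome regulator of stationary phase, was at -1.72 ± 0.32 (limma, adjusted p = 0.015), with 200 and 398 in Snf1-I132G and 908.5 and 1038 in Snf1. ECM29, for a protein that holds core and regulatory particle together, was at -1.24 ± 0.21 (limma, adjusted p = 0.012). Of its 4 probe sets 2 fell and the others lay below 0. FUB1, whose product binds the core, was at -0.59 ± 0.15 (limma, adjusted p = 0.036).

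POC4, for a chaperone of the alpha ring, went the other way. It had 551 and 489 in Snf1-I132G and 301 and 296 in Snf1, a difference of 0.77 ± 0.16 (limma, adjusted p = 0.021). It passed in 1 of the 4 fits that left out an array. Falls among the 13 genes numbered 2 after median centring, where 13.5% of all tested genes fell. They were fewer whenever an array was left out.

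Genes that supply ubiquitin and pass it on also moved both ways. Of 15 listed genes 12 were tested, and 4 fell and 1 rose, where 19.9% of all tested genes fell and 9.03% rose. UBC8 is among the 4 falls and is counted again with the GID ligase below. The median of the 12 genes was -0.17, close to that of all tested genes. RPL40A and RPL40B share probe sets, and UBC11 was too dim. UBC5, for a stress-induced conjugating enzyme, had 270 and 245 in Snf1-I132G and 1004 and 1186 in Snf1, a difference of -2.02 ± 0.17 (limma, adjusted p = 0.0026). UBA1, for the activating enzyme, was at -0.99 ± 0.18 (limma, adjusted p = 0.014). RPS31, which encodes ubiquitin fused to a ribosomal protein, rose to 9463 and 7960 in Snf1-I132G, against 4402 and 4025 in Snf1, a difference of 1.04 ± 0.17 (limma, adjusted p = 0.010). Falls numbered 2 without either array of Snf1, and RPS31 missed the threshold without replicate 2 of Snf1.

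Of the GID ligase, which marks gluconeogenic enzymes for degradation when glucose returns, 5 of 8 genes fell, against 19.9% of all tested genes. The median of the ligase was -0.87. UBC8, its conjugating enzyme, had 308 and 183 in Snf1-I132G and 1091 and 1164 in Snf1, a difference of -2.17 ± 0.26 (limma, adjusted p = 0.0052). VID28 was at -1.65 ± 0.20, GID7 at -1.06 ± 0.27 and VID30 at -1.05 ± 0.28, with adjusted p from limma of 0.0052, 0.036 and 0.041. Falls numbered 3 after median centring, where 13.5% of all tested genes fell. They were fewer whenever an array was left out.

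Among 13 other ligase genes 6 fell and 0 rose, where 19.9% of all tested genes fell and 9.03% rose. The median of the 13 genes was -0.55. UBR1, for the ligase of the N-degron pathway, was at -0.62 ± 0.15 and GRR1, for an F-box protein of glucose signalling, at -0.78 ± 0.20 (limma, adjusted p = 0.031 and 0.037). TOM1 was at -0.91 ± 0.15 (limma, adjusted p = 0.011), but of its 8 tested probe sets 2 fell and 1 rose. UBR2, given above, is in this list as well. Of 17 tested deubiquitinase genes 5 fell, against 19.9% of all tested genes, and 0 rose. Both Snf1-I132G arrays lay below both Snf1 arrays in 9 of the 17, against 45.4% of all tested genes. The median of the 17 genes was -0.53, and UBP7 was too dim. UBP11, DOA4 and UBP2 were at -0.93 ± 0.16, -0.77 ± 0.18 and -0.74 ± 0.18, and UBP6, for the deubiquitinase bound to the proteasome, at -0.62 ± 0.16 (limma, adjusted p = 0.037). DOA4 was dim, at 45.6 and 41.2 in Snf1-I132G and 91.4 and 79.3 in Snf1, below the median signal of each array. Of these genes only UBP11 was still called after median centring and after quantile normalization. Without replicate 1 and 2 of Snf1 the ligases had 1 and 0 falls and the deubiquitinases 0 and 0, and without replicate 1 and 2 of Snf1-I132G the ligases had 4 and 2 and the deubiquitinases 1 and 2. Median centring left 2 in each list, where 13.5% of all tested genes fell.

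Of the shuttle factors and Cdc48 with its cofactors, which carry ubiquitinated proteins to the proteasome, 3 of 7 genes fell. Over all tested genes 19.9% fell. The median of the 7 genes was -0.68, and all had both Snf1-I132G arrays below both Snf1 arrays, against 45.4% of all tested genes. DDI1, a shuttle factor gene, had 252 and 168 in Snf1-I132G and 875 and 838 in Snf1, a difference of -1.97 ± 0.22 (limma, adjusted p = 0.0046). SHP1, for a Cdc48 cofactor, had 1139 and 751 in Snf1-I132G and 2547 and 2476 in Snf1, a difference of -1.42 ± 0.23 (limma, adjusted p = 0.0099). CDC48 was at -0.61 ± 0.16 (limma, adjusted p = 0.037) and RAD23, for another shuttle factor, at -0.54 ± 0.16, which did not pass (0.059). The calls in this list depended on which arrays entered, and all 7 genes fell with the block, where 31.8% of all tested genes fell.

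The vacuole is the cell's other main site of protein breakdown. All 10 genes of vacuolar proteases and their inhibitors fell, where 19.9% of all tested genes fell. The median of the 10 genes was -1.38. PRB1, for protease B, had 1192 and 871 in Snf1-I132G and 4114 and 4222 in Snf1, a difference of -2.01 ± 0.19 (limma, adjusted p = 0.0033). PBI2, for the inhibitor of that protease, was at -1.46 ± 0.17, ATG42 at -1.99 ± 0.25 and APE3 at -1.30 ± 0.14. The median of the proteasome genes was -0.65. Whether the 2 lists differ was not tested. Without replicate 2 of Snf1 6 of the 10 vacuolar genes fell.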

How the data were processed

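The authors deposited 1 linear signal intensity per probe set and array, computed by MAS5 according to the submitters' processing notes, and its version and the build behind the array are not given in the sources used here. The arrays had been scaled to a shared level: with 2% trimmed at each end, their means lay between 500.36 and 500.51. The number of arrays limits the precision. Gene symbols came from the platform annotation, and all 6504 probe sets with 1 gene matched the RefSeq table of assembly R64, used for names only, so no coordinates are given.

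Signals were taken as log2(value + 16). The 60 control probe sets were left out, and the others were kept if their mean log2 signal reached the 25th percentile, which left 6956, standing for 5202 genes. The comparison used lmFit and eBayes, with an intensity trend, from limma 3.58.1 in R 4.3.3, adjusted over all tested probe sets, with 2 residual degrees of freedom. The fit was tested on simulated data with independent noise between arrays and with changes larger than most of the subunit differences given here.

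The members, gene lists and tests were chosen with earlier results of these data known. All members were to be named, all 6 genes around RPN4, and of each other list up to 4 genes with the smallest p. Others named are exceptions, chosen after their values were seen. The file labels of same-numbered arrays share a string, read as a shared run, which is not certain. Across probe sets, replicate 1 of both groups deviated from its group mean in a like way (r = 0.515). The pair was a block in an alternative fit, with 1 residual degree of freedom. Promoter and protein sequences were not used here.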

Additional observations from a re-analysis of the deposited data

How the results depend on the processing

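Among all settings tried, no proteasome gene rose, and the median differences of both particles stayed below 0. Of all tested genes 13.5% fell after median centring and 15.1% after quantile normalization. With the pair as a block 31.8% fell, and after centring on hybridization controls 34.1%. Falls of core particle genes, 9 of 14 as reported, numbered 3 after median centring and 14 with the pair as a block. After centring on hybridization controls, an alternative chosen after seeing the data, they numbered 14. They ranged from 1 to 10 when each array was left out. Falls of regulatory particle genes, 11 of 18 as reported, numbered 5 after median centring and 6 after quantile normalization, and ranged from 0 to 9 when each array was left out. The core median of -0.67 was -0.90 after centring on hybridization controls. The regulatory median of -0.62 was -0.85 after centring on hybridization controls, -0.43 after median centring and -0.52 after quantile normalization, and ranged from -0.60 to -0.71 when each array was left out. Over all probe sets, 709 rose and 1212 fell. With the replicate block 1354 rose and 1984 fell, with plain _at probe sets alone, also chosen after seeing the data, 464 rose, and after centring on hybridization controls 2114 fell. Without each array in turn 325 to 664 rose and 451 to 1069 fell. Rises were 36.9% of the calls on the deposited scale, 54.1% after median centring, 47.5% after quantile normalization and 18.8% after centring on controls. RPN9, not called under any setting, turned positive after median centring (0.16), after quantile normalization (0.10), within pair 1 (0.53) and in 2 of the fits that left out an array, which ranged from -0.63 to 0.57. PDR3, also not called, did so under the same settings, at 0.16, 0.014, 0.075 and, over the fits that left out an array, -0.17 to 0.13. The causes of these changes were not tested. Some of the fits also held fewer arrays or probe sets. Other pseudocounts, filters, variance models and choices of probe sets left 17 to 25 of the 36 genes lower, against 22. The planned search of promoters for the Rpn4 motif, with the list it would give, was not run, as no promoter sequences were used here.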
